A study of Mus musculus with 24 samples.

Results

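Mmp7, Spp1, Clu and Lcn2 encode 4 proteins that injured bile duct epithelium secretes, and their levels were followed through mouse liver organoids. The 4 genes were chosen because they stood among the most abundant transcripts of the libraries labelled primary hepatocytes (Pri-Hep), and each had a row in all 3 expression tables, which list 31053, 25876 and 20729 genes. Their levels in the hepatocyte table are therefore a description of how they were chosen, and tests of them are given only for changes with passage. The tables hold FPKM, the fragments assigned to a gene divided by its length and by a library size. That size was a scaled one in the hepatocyte table.

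Hepatocytes and cholangiocytes came from livers of wild-type adult BALB/c mice, the former as EpCAM-negative and the latter as EpCAM-positive cells, and were grown in Matrigel. One table covers 12 libraries, with 3 each of Pri-Hep and of hepatocyte organoids (Hep-Orgs) at passages P1, P5 and P10, whose medium contained the gamma-secretase inhibitor DAPT and dexamethasone. A second covers 9 libraries of cholangiocyte organoids (Cho-Orgs), 3 each at P0, P5 and P10, grown without DAPT and dexamethasone. The last holds 1 Smart-Seq library each of P0 hepatocyte organoids picked by shape as round-like, intermediate or grape-like, from medium without DAPT and dexamethasone. The labels call the replicates separate samples of a group, a figure legend of the study assigns the numbers to mice and its methods speak of independent cultures. The p-values rest on the spread between these samples, pooled over all groups of a table and not only the groups compared.

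Mmp7 encodes matrilysin, a small secreted metalloproteinase of glandular epithelium that cleaves cell surface and matrix proteins and that is raised in blood in biliary disease. Spp1 encodes osteopontin, a secreted phosphoprotein that binds integrins and CD44 and that marks bile duct cells and the ductular reaction. Clu encodes clusterin, a secreted chaperone and apolipoprotein, and Lcn2 encodes lipocalin 2, which binds bacterial siderophores and is induced in epithelium by inflammatory cytokines. Damaged or activated biliary epithelium is a known source of all 4.

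Mmp7 (ENSMUSG00000018623) lies on the plus strand at chr9:7692090-7699585, Spp1 (ENSMUSG00000029304) on the plus strand at chr5:104435118-104441050, Clu (ENSMUSG00000022037) on the plus strand at chr14:65968483-65981547 and Lcn2 (ENSMUSG00000026822) on the minus strand at chr2:32384633-32388252, in GENCODE M21 on GRCm38, the assembly also called mm10. RefSeq promoters on GRCm38.p6 matched 3 of the 4 genes. The 250 bases before the RefSeq start nearest to the annotated gene start are shown for these 3, Mmp7, Spp1 and Lcn2, to set their promoters side by side, with motif matches in capitals. The windows are chr9:7691840-7692089 for Mmp7, chr5:104434861-104435110 for Spp1 and chr2:32387740-32387989 for Lcn2, the last on the minus strand and inside the span that GENCODE gives the gene.
Mmp7: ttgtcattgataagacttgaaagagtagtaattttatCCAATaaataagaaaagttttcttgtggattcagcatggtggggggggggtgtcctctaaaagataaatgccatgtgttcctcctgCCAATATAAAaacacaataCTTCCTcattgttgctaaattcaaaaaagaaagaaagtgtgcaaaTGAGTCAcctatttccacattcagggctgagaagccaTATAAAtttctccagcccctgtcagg
Spp1: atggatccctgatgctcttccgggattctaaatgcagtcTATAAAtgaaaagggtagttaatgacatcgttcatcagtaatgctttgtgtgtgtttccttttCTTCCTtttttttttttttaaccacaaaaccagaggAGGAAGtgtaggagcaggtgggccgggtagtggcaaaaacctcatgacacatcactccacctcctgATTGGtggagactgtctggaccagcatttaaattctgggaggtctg
Lcn2: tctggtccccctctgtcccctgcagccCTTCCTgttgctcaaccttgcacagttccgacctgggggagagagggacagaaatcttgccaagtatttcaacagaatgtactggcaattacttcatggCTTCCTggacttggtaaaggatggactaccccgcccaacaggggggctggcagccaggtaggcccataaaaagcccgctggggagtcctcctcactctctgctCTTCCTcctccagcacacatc

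The capitals mark matches on either strand to 7 motifs, the TATA box TATAAA, the CCAAT box CCAAT, the AP-1 site (TGA and TCA around any base), the Ets site of PEA3 AGGAAG, a TCF site CTTTGAT, a consensus NF-kB site and a STAT site TTCNNNGAA. Mmp7 held TATAAA at positions -26 to -21 and -123 to -118 from the start, CCAAT at -213 to -209 and -127 to -123, the latter sharing 1 base with the distal TATAAA, the AP-1 motif at -63 to -57 and AGGAAG on the strand opposite to the gene at -108 to -103. Spp1 held TATAAA at -211 to -206, CCAAT on the strand opposite to the gene at -46 to -42 and AGGAAG at -148 to -143 on the strand opposite to the gene and at -112 to -107 on the gene's own strand. Lcn2 held AGGAAG 3 times on the strand opposite to the gene, at -223 to -218, -124 to -119 and -21 to -16, and the other motifs were not in its window. Among 32851 RefSeq promoter windows of the same length, AGGAAG was found in 29.5%, CCAAT in 33.8%, TATAAA in 12.4% and the AP-1 motif in 6.75%. The TCF, NF-kB and STAT motifs, found in 3.21%, 4.11% and 7.02% of the windows, were in none of the 3 windows shown. A match describes letters and was not linked to binding or to a change in level.

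Fragments assigned to genes ranged from 14068906 to 27160365 in the hepatocyte table. The library sizes recovered from the other tables were 37467796 to 39926192 fragments for the Cho-Orgs and 40035109 to 40375837 for the Smart-Seq libraries. The libraries labelled Pri-Hep went against that label. Their summed level of 9 listed hepatocyte markers was 604 to 637 FPKM, led by the thyroxine carrier Ttr at 419 FPKM, and that of 10 cholangiocyte markers was 838 to 857 FPKM, led by Epcam at 269 FPKM, the antigen used to remove biliary cells. Alb, the main plasma protein of hepatocytes, averaged 112 FPKM and held rank 287 to 321 in the 3 Pri-Hep libraries. Apart from Ttr and Alb, the listed hepatocyte markers averaged from 0 for Serpina1c to 46.9 FPKM for Fgb there. The 9 Hep-Orgs libraries were alike, with sums of 617 to 665 FPKM for hepatocyte and 843 to 878 FPKM for cholangiocyte markers and Alb at rank 273 to 325. Over all 10986 genes tested, limma with Benjamini-Hochberg adjustment called 1 (0.0091%), 1 (0.0091%) and 0 (0%) between P1, P5 and P10 and Pri-Hep at an adjusted p under 0.05, with 911, 1184 and 730 genes at an unadjusted p under 0.05. Limma-voom on recovered fragments called 30, 39 and 0. Few genes thus passed a test between the libraries labelled Pri-Hep and the Hep-Orgs, and whether the former hold freshly isolated hepatocytes was not tested. Of 10 macrophage markers, Adgre1, Clec4f, C1qa, C1qb, Vsig4, Timd4 and Marco were at 0 in all 12 libraries of that table. The others were detected there, Cd68 at 4.24 to 7.20 FPKM, Csf1r at 2.35 to 3.10 and Lyz2 at no more than 0.108.

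In the hepatocyte table all 4 genes stood at the top of the transcriptome and hardly varied. By mean FPKM in Pri-Hep, Mmp7 held rank 2, between the mitochondrial genes mt-Co1 at 20851 ± 514 and mt-Cytb at 6752 ± 293 (SD, n = 3). Spp1 held rank 6, between mt-Nd1 and mt-Nd5, Clu rank 9, between mt-Nd2 and mt-Nd6, and Lcn2 rank 11, between mt-Nd6 and mt-Nd4. The elongation factor Eef1a1, which every cell uses, held rank 4 at 6542 ± 263 FPKM. A high rank here was part of how the 4 members were chosen, so it is given without a test. Other genes of similar rank, such as mt-Co1 and Eef1a1, are not members. Just below Lcn2, mt-Nd4 reached 1724 ± 80.9 FPKM.

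Mmp7 measured 9511, 9655 and 9972 FPKM in Pri-Hep, 10197, 10246 and 10515 in Hep-Orgs P1, 10227, 10276 and 10202 in P5 and 10035, 9696 and 9679 in P10. Pri-Hep and P10 overlapped, and P1 and P5 lay above both. Spp1 measured 3090, 3203 and 3139 FPKM in Pri-Hep, 3037, 3046 and 3083 in P1, 3086, 3056 and 3020 in P5 and 3237, 3156 and 3159 in P10. The P10 libraries of Spp1 lay above those of P1 and P5 and overlapped Pri-Hep. Clu measured 2881, 2834 and 2771 FPKM in Pri-Hep, 2799, 2813 and 2829 in P1, 2872, 2851 and 2874 in P5 and 2861, 2802 and 2846 in P10, and Pri-Hep overlapped every passage. Lcn2 measured 2512, 2502 and 2577 FPKM in Pri-Hep, 2643, 2686 and 2739 in P1, 2643, 2604 and 2629 in P5 and 2666, 2582 and 2627 in P10. The Pri-Hep libraries of Lcn2 lay below all 9 Hep-Orgs libraries. Over all genes tested, Pri-Hep did not overlap P1, P5 or P10 for 13.5%, 15.1% and 10.9%.

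**Figure D1:**
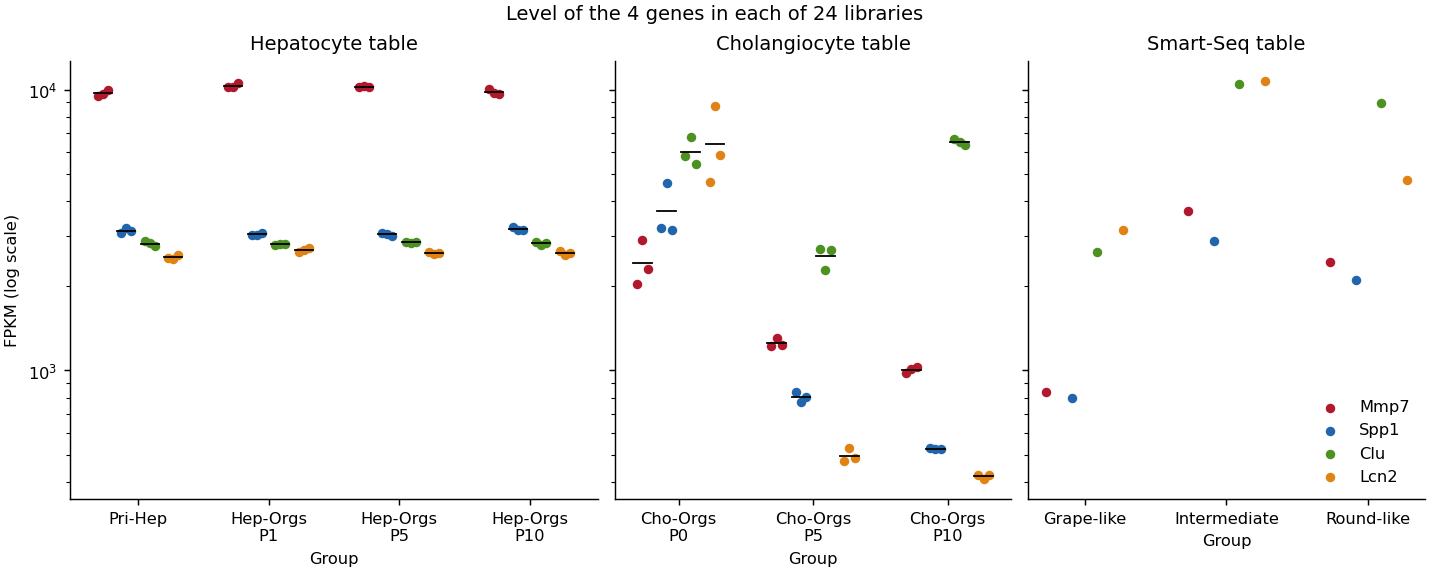
FPKM on a log axis for Mmp7, Spp1, Clu and Lcn2 in each of 24 libraries, by group and table, with points for libraries and short bars for the mean of 3 replicates. The 4 genes are flat across the 12 libraries of the hepatocyte table, with Mmp7 between 9511 and 10515 FPKM, whereas Mmp7, Spp1 and Lcn2 fall from P0 to P5 in the Cho-Orgs and Clu falls and returns.

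Against Pri-Hep, the Hep-Orgs differed on the log2(FPKM + 1) scale by at most 0.09 for any member. The mean differences for Mmp7 were 0.09, 0.08 and 0.01 at P1, P5 and P10 (SE 0.02 for each), and for Lcn2 0.09, 0.05 and 0.05 (SE 0.02). Those for Spp1 were -0.04, -0.04 and 0.02 (SE 0.02) and those for Clu -0.0076, 0.02 and 0.0039 (SE 0.02). Over the 12 libraries the coefficient of variation was 3.14% for Mmp7, 2.22% for Spp1, 1.21% for Clu and 2.60% for Lcn2. The counting error of the shallowest library alone would give 0.258%, 0.365%, 0.269% and 0.319%.

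The order Mmp7, Spp1, Clu, Lcn2 held in every Pri-Hep and Hep-Orgs library, but it depended on the gene length used. The hepatocyte table divides by every annotated base of a gene, 1068 for Mmp7, 1648 for Spp1, 3437 for Clu and 2623 for Lcn2, whereas the lengths recovered from the other tables were 1115, 1658, 2246 and 853 bases. Recomputed on the latter lengths, Pri-Hep held 9303 ± 226 FPKM of Mmp7, 7781 ± 125 of Lcn2, 4329 ± 84.6 of Clu and 3125 ± 56.4 of Spp1 (SD, n = 3). Lcn2 moved from the fourth to the second place in that order, in Pri-Hep and in the 3 passages. Levels of Lcn2 and Clu can therefore not be set side by side between tables as deposited, and shares of fragments are used for that below.

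Between Hep-Orgs passages no member passed the test, limma with Benjamini-Hochberg adjustment over 10986 genes at an adjusted p under 0.05. The test called 0 (0%), 3 (0.0273%) and 0 (0%) of all genes for P5 against P1, P10 against P5 and P10 against P1, and 436, 1266 and 986 had an unadjusted p under 0.05. From P5 to P10, Mmp7 differed by -0.062 (SE 0.02, adjusted p = 0.35 by limma, lower in 3 of 3 libraries) and Spp1 by 0.060 (SE 0.02, adjusted p = 0.275 by limma, higher in 3 of 3 libraries). From P1 to P10 the differences were -0.074 for Mmp7 (SE 0.02, adjusted p = 0.407 by limma) and 0.059 for Spp1 (SE 0.02, adjusted p = 0.419 by limma). Limma-voom on recovered fragments, an alternative chosen after seeing the data, called 0, 28 and 29 genes in these comparisons. It placed Mmp7 past the threshold from P5 to P10 (adjusted p = 0.00853) and from P1 to P10 (0.0036) and Spp1 from P1 to P10 (0.0434), at -0.070, -0.079 and 0.055. Clu and Lcn2 differed by at most 0.035 in size between any pair of passages. The P5 groups of Clu and Lcn2 did not overlap those of P1, as for 10.3% of all genes tested. The P10 libraries of Mmp7 did not overlap those of P5 or P1 and were lower, as for 8.58% and 7.91% of genes, and those of Spp1 were higher, as for 8.52% and 8.38%.

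In the Cho-Orgs all 4 genes fell from P0 to P5, by between 1.91-fold for Mmp7 and 12.5-fold for Lcn2. From P5 to P10 Clu rose 2.55-fold, to levels that overlapped those of P0, while Mmp7 and Spp1 fell further and Lcn2 did not pass the test. Clu then stood at rank 3 or 4 of its library at P10, and Lcn2 at rank 135 to 139. In these bulk samples fewer cells of a type and less RNA per cell cannot be told apart.

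Lcn2 measured 4687, 8722 and 5870 FPKM at P0, 476, 528 and 486 at P5 and 424, 409 and 426 at P10. The P0 libraries lay far above the later ones, with replicate 2 the highest. The fall from P0 to P5 was -3.64 on the log2(FPKM + 1) scale (SE 0.18, adjusted p = 2.17e-07 by limma), and P10 lay 14.8-fold below P0 (log2 -3.88, SE 0.18, adjusted p = 5.01e-08 by limma). From P5 to P10 the difference was -0.24 (SE 0.18, adjusted p = 0.261 by limma), although the P10 libraries all lay below those of P5. That SE was pooled with the wider spread of P0. With only the P5 and P10 libraries in the fit the step passed the threshold (SE 0.043, adjusted p = 0.000706 by limma). It also passed without P0 replicate 2 (adjusted p = 0.0218).

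Spp1 measured 3225, 4649 and 3173 FPKM at P0, 841, 772 and 802 at P5 and 531, 527 and 525 at P10. No passage overlapped another, and the 3 libraries of P10 were nearly equal. The log2 difference was -2.17 from P0 to P5 (SE 0.12, adjusted p = 6.86e-07 by limma) and -0.61 from P5 to P10 (SE 0.12, adjusted p = 0.00199 by limma). From P0 to P10 it was -2.78 (SE 0.12, adjusted p = 4.66e-08 by limma), a 6.86-fold fall.

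Mmp7 measured 2038, 2905 and 2305 FPKM at P0, 1218, 1309 and 1229 at P5 and 982, 1009 and 1028 at P10. It fell the least of the members from P0 to P5, and its 3 passages did not overlap. The log2 difference was -0.93 from P0 to P5 (SE 0.11, adjusted p = 6.48e-05 by limma) and -1.25 from P0 to P10 (SE 0.11, adjusted p = 3.55e-06 by limma). The smaller step from P5 to P10 was -0.31 (SE 0.11, adjusted p = 0.0275 by limma) and was lost without a filter on low values (adjusted p = 0.0965) and without replicate 3 of every group (adjusted p = 0.127).

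Clu measured 5785, 6804 and 5418 FPKM at P0, 2715, 2283 and 2676 at P5 and 6676, 6482 and 6373 at P10. The P5 libraries lay below all others, while P0 and P10 overlapped. Its log2 difference was -1.23 from P0 to P5 (SE 0.09, adjusted p = 4.04e-06 by limma) and 1.35 from P5 to P10 (SE 0.09, adjusted p = 2.03e-06 by limma). The difference between P10 and P0 was 0.12 (SE 0.09, adjusted p = 0.25 by limma). It passed the threshold without replicate 2 of every group (0.22, adjusted p = 0.0208 by limma) and without P0 replicate 2 alone (0.22, adjusted p = 0.0291).

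**Figure D2:**
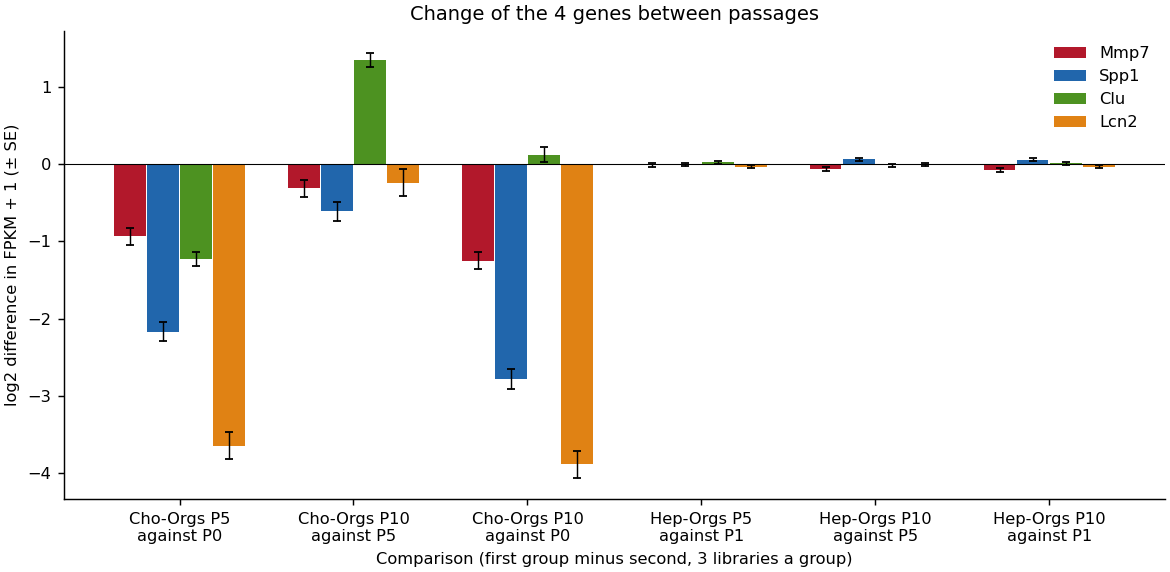
Difference in log2(FPKM + 1) between passages for the 4 genes, first group minus second, in Cho-Orgs and Hep-Orgs, with bars for the fitted difference and error bars of 1 SE (3 libraries a group). Lcn2 has the longest bar from P0 to P5 (-3.64), Clu is the only one of the 4 with a bar above 0 from P5 to P10 in the Cho-Orgs (1.35), and the longest Hep-Orgs bar is Mmp7 from P1 to P10 (-0.074).

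The Cho-Orgs changed broadly, and the members' counts stand against that background. Of 11593 genes tested, 56.6% were called from P0 to P5 (22.6% lower), 61.5% from P5 to P10 (30.5% lower and 31% higher) and 72.3% from P0 to P10 (31.3% lower). Called members numbered 4 of 4, 3 of 4 and 3 of 4. Groups did not overlap for 4 of 4, 4 of 4 and 3 of 4 members, and for 61.5%, 74.2% and 75.1% of all genes. From P0 to P5 60% of all calls were higher, and 47.1% with median-ratio size factors. The median difference of the members was -1.7, -0.28 and -2.01 against 0.062, 0.0055 and 0.069 for all genes tested. Replicate 2 of P0 held the highest value of the 3 P0 libraries for each member. Without it the falls from P0 to P5 were -0.79 for Mmp7, -1.99 for Spp1, -1.13 for Clu and -3.4 for Lcn2, and 4 of 4 members were called.

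The summed hepatocyte markers were lower over the same passages as Lcn2, Spp1 and Mmp7, and unlike Clu did not return at P10. The summed level of 9 hepatocyte markers was 7181 to 7997 FPKM at P0, led by Alb, 203 to 250 at P5 and 77.8 to 83.3 at P10. Hnf4a, a transcription factor on that list and its leading gene at P10, averaged 64.3, 60.9 and 56.4 FPKM. That of 10 cholangiocyte markers was 1988 to 2228, 2905 to 3001 and 2929 to 2958 FPKM, led by Krt19. Stellate cell markers, led by Reln, summed to 64.6 to 79.4 FPKM at P0, 7.59 to 8.42 at P5 and 0.174 to 0.239 at P10. Reln made up most of the sums at P0 and P5, with means of 69.2 and 7.36 FPKM. At P0 Rgs5 averaged 4.16 FPKM, Pdgfrb 0.427 and the other stellate markers at most 0.132. Endothelial markers, of which Clec4g was at 0, summed to 3.07 to 4.71, 2.77 to 3.33 and 0.636 to 1.04 FPKM. Bmp2 led them, with means of 3.12, 2.44 and 0.409. Macrophage markers summed to 43.5 to 48.9, 72.1 to 77.3 and 10.1 to 10.5 FPKM, with Clec4f, Vsig4 and Timd4 at 0. Cd68 made up most of these sums, with means of 30.4, 74.5 and 9.53 FPKM. Csf1r was detected at each passage, with means of 0.505, 0.44 and 0.794 FPKM. Lyz2 averaged 13.2 FPKM at P0 and was at 0 at P5 and P10. Adgre1, C1qa and C1qb, under 1 FPKM at P0, were at 0 at P5. Neutrophil markers, which include the lactoferrin gene Ltf that led them, summed to 25.3 to 49.3, 63.9 to 77.7 and 36.1 to 37.8, with Mpo, Elane, Retnlg and Camp at 0. Ltf and Ly6g were highest at P5 (means of 36.4 and 31.2 FPKM), S100a9 at P10 (9.11) and S100a8 at P0 (0.906). Whether such cells were present, and their part in the fall of Lcn2, Spp1 and Mmp7, was not tested.

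Shares of fragments, which are not divided by gene length, showed how the mixture of the 4 genes shifted. Gene lengths differed between the tables, so fragments may have been counted over different bases of a gene, which was not tested. The shares are of the recovered library size, a scaled one in the hepatocyte table. Together the 4 genes took 3.17% to 3.32% of it in the 12 libraries of that table. In the Cho-Orgs they took 2.78% ± 0.512 at P0, 0.89% ± 0.0507 at P5 and 1.7% ± 0.0324 at P10 (SD, n = 3). Clu made up 48.9% of the fragments of the 4 genes at P0, 64.5% at P5 and 86.1% at P10 on average, against 29.5% to 30.5% in Pri-Hep and the Hep-Orgs. The share of Lcn2 was 19.5%, 4.78% and 2.11% over the Cho-Orgs passages and 20.8% to 21.5% in Pri-Hep and the Hep-Orgs.

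Ratios between members gave the same shift within each library. There were 2.58 ± 0.612 fragments of Clu for each of Lcn2 at P0, 13.6 ± 1.97 at P5 and 40.8 ± 1.27 at P10 (SD, n = 3). Fragments of Mmp7 per fragment of Spp1 numbered 0.445 ± 0.0381, 1.05 ± 0.0837 and 1.28 ± 0.0369 over the same passages. Pri-Hep held 2 ± 0.053 fragments of Mmp7 per fragment of Spp1 and 1.47 ± 0.0498 of Clu per fragment of Lcn2. Set side by side, of every 1000000 fragments of the recovered library size Mmp7 took 10373 ± 252 in Pri-Hep and 2694 ± 495 in Cho-Orgs P0. Spp1 took 5181 ± 93.5 and 6106 ± 1388. These tables were normalized separately and were not tested against each other.

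**Figure D3:**
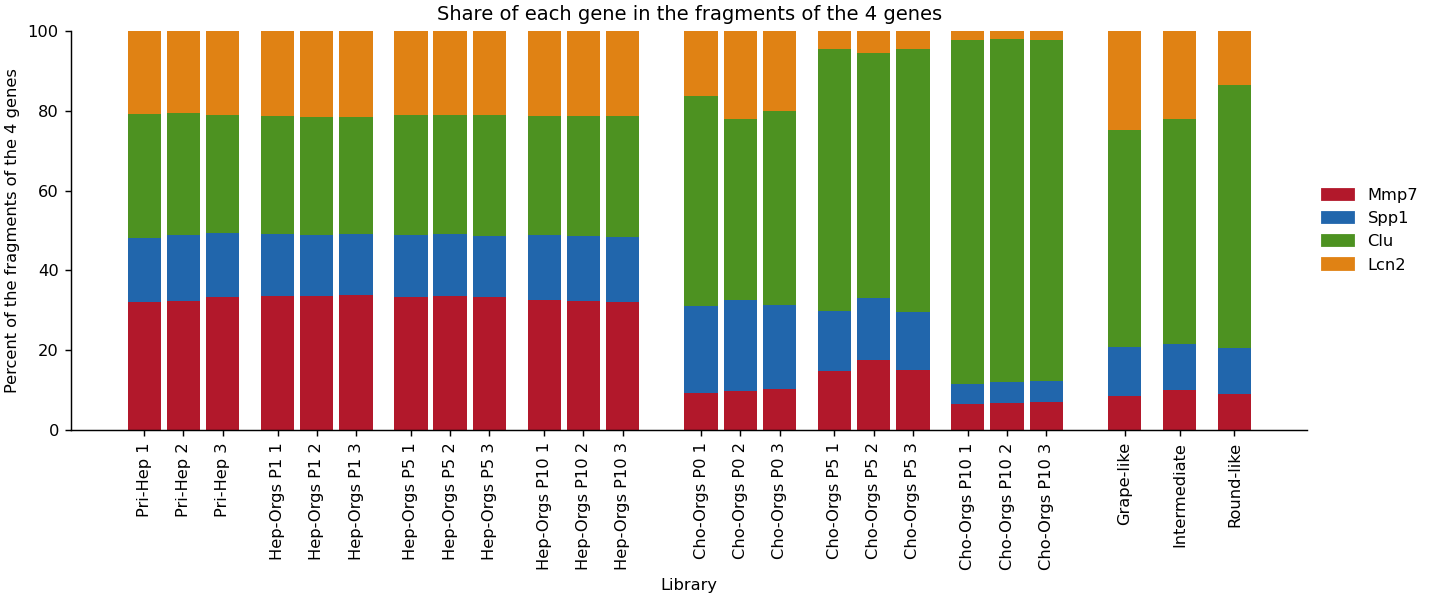
Percent of the fragments of the 4 genes that each gene took, stacked to 100% for each library of Pri-Hep, Hep-Orgs, Cho-Orgs and the Smart-Seq shapes. The bars are alike in the 12 libraries of the hepatocyte table, and Clu grows from 48.9% at P0 to 86.1% at P10 in the Cho-Orgs.

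Matrilysin's relatives and inhibitors did not follow it as a group. Of 20 other metalloproteinases, 5 were tested in the Cho-Orgs and the rest stayed under the filter of 1 FPKM in 3 libraries. From P0 to P5 1 was higher, 1 lower and 3 did not pass the test, with a median of 0.21. Mmp15, a membrane-anchored metalloproteinase with the highest level of the list, rose from 36.1 ± 2.79 to 51.4 ± 0.727 FPKM (adjusted p = 0.000122 by limma, n = 3). Mmp19, the 1 lower, fell from 2.65 ± 0.543 to 0.177 ± 0.0201 FPKM. It passed the filter only through the P0 libraries, so against P0 it could only be called lower. From P5 to P10 0 were higher and 1 lower (median -0.082), namely Mmp15, which fell to 31 ± 1.75 FPKM (log2 -0.71, adjusted p = 1.12e-05 by limma, n = 3) and ended below P0 (log2 -0.21, adjusted p = 0.0128). From P0 to P10 2 were higher, among them Mmp11 at 0.95, and 2 lower, Mmp19 among them. Without P0 replicate 2 only 4 passed the filter, and Mmp19 was not among them. Of these 4, 3 were higher and 0 lower from P0 to P5, and 3 higher and 1 lower from P0 to P10. From P5 to P10 1 was then higher and 1 lower.

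The tissue inhibitors of metalloproteinases changed in opposite directions. Timp3, a matrix-bound inhibitor, rose from 61 ± 20.7 FPKM at P0 to 420 ± 11.9 at P5 and 813 ± 17.8 at P10 (log2 3.76 from P0 to P10, SE 0.17, adjusted p = 5.49e-08 by limma, n = 3). Timp2 rose from 43.2 ± 5.97 to 83.6 ± 1.49 FPKM from P0 to P10, while Timp1, the secreted inhibitor induced by injury, fell from 12.7 ± 3.66 to 0.955 ± 0.187. Of the 5 inhibitors listed 3 were tested, with 2 higher and 1 lower both from P0 to P5 and from P0 to P10. From P5 to P10 1 was higher and 1 lower, and 2 were higher without P0 replicate 2.

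Epithelial proteins that matrilysin is known to cleave were tested for 6 of 8 genes, Spp1 among them. From P0 to P5 2 were higher and 2 lower (median -0.12), from P5 to P10 2 higher and 3 lower (median -0.41), and from P0 to P10 1 higher and 4 lower (median -1.03). Fn1, which encodes fibronectin, fell from 128 ± 33.1 FPKM at P0 to 11.3 ± 0.746 at P10 (log2 -3.36, SE 0.17, adjusted p = 8.8e-08 by limma, n = 3). Igfbp3, a carrier of insulin-like growth factors, fell from 41.3 ± 12 to 14.5 ± 0.766 FPKM. Without P0 replicate 2 the genes higher from P0 to P10 numbered 2.

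The other members of the osteopontin family, Ibsp, Dmp1, Dspp and Mepe, were at 0 in all 12 libraries of the hepatocyte table. Osteopontin receptors were tested for 6 of 10 genes. Cd44, the most abundant of them, measured 142 ± 21.2 FPKM at P0, 210.5 ± 7.49 at P5 and 115 ± 1.22 at P10, with log2 changes of 0.57 and -0.86 that both passed the test (adjusted p = 0.000414 and 2.61e-05 by limma, n = 3). Itga5 fell from 4.52 ± 0.868 to 0.754 ± 0.0621 FPKM from P0 to P10, and Itgb6 rose from 1.94 ± 0.287 to 4.65 ± 0.144. In all 4 receptors were higher and 2 lower from P0 to P5 (median 0.28), 2 higher and 3 lower from P5 to P10 (median -0.23), and 1 higher and 3 lower from P0 to P10 (median 0.027). Without P0 replicate 2 the last counts were 3 and 3.

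Clusterin receptors were tested for 2 of 4 genes. Vldlr measured 13.4 ± 1.83, 18 ± 0.62 and 15.2 ± 0.116 FPKM at P0, P5 and P10, and Lrp8 measured 2.81 ± 0.543, 4.05 ± 0.145 and 2.53 ± 0.112. Both rose from P0 to P5 and fell from P5 to P10, the reverse of Clu, and neither passed the test from P0 to P10 (adjusted p = 0.0826 and 0.363 by limma, n = 3). Without P0 replicate 2, 1 was higher and 1 lower in that comparison. Of the genes for uptake of lipocalin 2 and for its mammalian siderophore 1 of 3 was tested, Slc22a17, which rose from 1.36 ± 0.492 to 3 ± 0.131 FPKM from P0 to P10 (adjusted p = 0.000268 by limma, n = 3). It also passed the test from P5 to P10 without P0 replicate 2.

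Receptors of inflammatory cytokines, the Toll-like receptors Tlr2 and Tlr4 and their adaptor Myd88 formed a list of 11 genes, and 11 were tested. From P0 to P5 3 were higher and 4 lower (median -0.056), and from P5 to P10 8 were higher and 1 lower (median 0.37). The interleukin 1 receptor Il1r1 fell from 4.13 ± 1.04 to 1.22 ± 0.0184 FPKM from P0 to P5, beside Lcn2, but rose to 2.9 ± 0.0919 at P10, where Lcn2 did not. Tlr4, the receptor of lipopolysaccharide, rose from 2.69 ± 0.283 to 5.98 ± 0.0684 FPKM from P0 to P10, and Il22ra1 from 5.23 ± 0.593 to 10.6 ± 0.511. The tumour necrosis factor receptor Tnfrsf1a, the most abundant, measured 54 ± 2.13, 51.9 ± 1.68 and 57.9 ± 0.216 FPKM. From P0 to P10 6 were higher and 2 lower (median 0.34).

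Genes commonly induced together with Lcn2 split into those that fell and those that rose. Of 12 listed, 10 were tested, with 2 higher and 6 lower from P0 to P5 (median -1.12), 6 higher and 1 lower from P5 to P10 (median 0.8) and 6 higher and 4 lower from P0 to P10 (median 0.68). Hp, the haemoglobin-binding acute phase protein that hepatocytes also make, fell from 531 ± 47.7 FPKM at P0 to 7.37 ± 0.534 at P5 and 0.177 ± 0.127 at P10 (adjusted p = 5.87e-12 by limma for P10 against P0, n = 3). Saa3, an acute phase amyloid, fell from 44.8 ± 6.76 to 4.3 ± 0.806 and 3.33 ± 0.71 FPKM. Ccl20, a chemokine for lymphocytes and dendritic cells, rose from 8.03 ± 3.01 to 29.2 ± 1.71 and 367 ± 14.6 FPKM (log2 5.4 from P0 to P10, SE 0.18, adjusted p = 7.94e-09 by limma, n = 3). These counts were the same without P0 replicate 2.

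**Figure D4:**
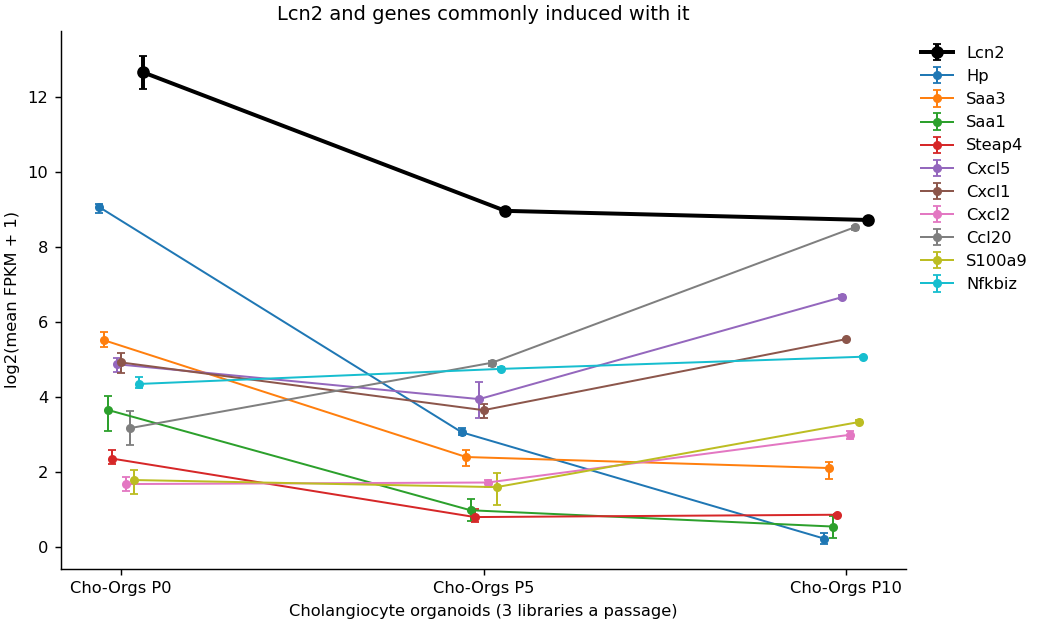
log2(mean FPKM + 1) of Lcn2 and of 10 genes commonly induced with it in the 3 Cho-Orgs passages, with error bars for the lowest and highest of 3 libraries. Hp and Saa3 fall with Lcn2 from P0 to P5, and Ccl20 climbs from 8.03 FPKM at P0 to 367 FPKM at P10 while Lcn2 stays low.

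Transcription factors known to act on these promoters were tested for 16 of 16 genes, with 6 higher and 3 lower from P0 to P5, 8 and 7 from P5 to P10, and 9 and 7 from P0 to P10 (medians 0.067, 0.17 and 0.21). With median-ratio size factors 4 were higher and 4 lower from P0 to P5, and the median turned to -0.011. Runx2, which binds the Spp1 promoter in bone, rose from 0.656 ± 0.092 to 5.63 ± 0.395 FPKM from P0 to P10 while Spp1 fell (adjusted p = 1.44e-08 by limma for Runx2, n = 3). The AP-1 subunit Fosl1 rose from 0.923 ± 0.411 to 6.37 ± 1.04 FPKM and Fos fell from 71.7 ± 36.8 to 20.8 ± 1.62. Ctnnb1, which encodes beta-catenin and was the most abundant of the list, measured 405 ± 18.7, 456 ± 20.5 and 480.5 ± 8.51 FPKM at the 3 passages.

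Of 12 genes of biliary identity and the ductular reaction 11 were tested, with 5 higher and 1 lower from P0 to P5, 3 and 5 from P5 to P10 and 5 and 5 from P0 to P10 (medians 0.13, 0.036 and -0.16). Krt7, a keratin of bile duct cells, rose from 248 ± 19.6 to 920 ± 5.4 FPKM from P0 to P10, opposite to Lcn2, Spp1 and Mmp7 (adjusted p = 5.57e-09 by limma, n = 3). Tnfrsf12a, the receptor of TWEAK, rose from 118 ± 7.92 to 299 ± 5.46 FPKM, and Cftr, the chloride channel of bile ducts, fell from 35.1 ± 19.6 to 1.04 ± 0.0205. Krt19, the most abundant, measured 1045 ± 83.5 FPKM at P0 and 1402 ± 16.9 at P10. Between Hep-Orgs passages no gene of these lists passed the test.

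The genes whose pattern was most like each member were taken by Pearson's r of log2(FPKM + 1) over the 9 Cho-Orgs libraries among 3221 genes of at least 20 FPKM on average. These libraries form 3 passages, so r mostly reads the passage means and is a description. Mmp7 was most like Tubb2a (r = 0.996), a tubulin, then the glutathione transferase Gstt1 (0.993) and Spp1 itself (0.989). Spp1 was most like the complement gene C3 (0.994), which fell from 1221 ± 140 FPKM at P0 to 33.4 ± 1.26 at P10, then Wbp1l and Prkar1a (both 0.992). Lcn2 was most like Cp (0.999), which encodes ceruloplasmin, then Fn1 (0.998) and Tm4sf4 (0.995). Cp fell from 436 ± 113 to 49.2 ± 1.65 and 46.8 ± 1.06 FPKM. Clu kept other company, with Hhex, a homeobox gene of liver development, at 0.997 and Tex261 and Gas6 at 0.982. Hhex measured 53.6 ± 2.45, 34.1 ± 1.76 and 57.6 ± 0.621 FPKM at P0, P5 and P10. Between Clu and the other members r was 0.204 for Mmp7, 0.241 for Spp1 and 0.378 for Lcn2.

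Among the P0 hepatocyte organoids picked by shape, the intermediate library held the highest level of each member and the grape-like library the lowest. There was 1 library per shape, so these are differences between libraries with no test. Intervals of 95% are from counting error only. Clu measured 2649 FPKM in the grape-like, 10436 in the intermediate and 8974 in the round-like library, and led the latter at rank 1. Lcn2 measured 3154, 10729 and 4783 FPKM and held rank 1 in the intermediate library. Mmp7 measured 835, 3692 and 2427 FPKM, and Spp1 measured 796, 2899 and 2107. Intermediate and round-like libraries were thus closer to each other than to the grape-like one for Mmp7, Spp1 and Clu, whereas Lcn2 stood apart in the intermediate library.

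In log2(FPKM + 1), the grape-like library lay below the round-like one by -1.76 for Clu (-1.77 to -1.75), -1.54 for Mmp7 (-1.56 to -1.52), -1.4 for Spp1 (-1.42 to -1.39) and -0.6 for Lcn2 (-0.61 to -0.59). Lower by at least 1 were 3 of 4 members, against 8.82% of 12595 genes. Between the grape-like and intermediate libraries the differences were -2.14 for Mmp7, -1.98 for Clu, -1.86 for Spp1 and -1.77 for Lcn2, and 4 of 4 members were lower by at least 1, against 7.15% of genes. The intermediate library lay above the round-like one by 1.17 for Lcn2 (1.16 to 1.17), 0.61 for Mmp7, 0.46 for Spp1 and 0.22 for Clu. Higher by at least 1 was 1 of 4, against 3.85% of genes.

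Markers of other cells moved with shape too. The summed level of 10 macrophage markers was 9552 FPKM in the grape-like, 2769 in the intermediate and 1503 in the round-like library, led by Lyz2, and 10 stellate cell markers summed to 1108, 294 and 214 FPKM, led by Dcn. Endothelial markers summed to 234, 96.8 and 44.2 FPKM, led by Stab1, and neutrophil markers, with Mpo, Retnlg and Ngp at 0, to 9.92, 63.4 and 38.3. Ltf set the latter order at 2.33, 54.1 and 37.7 FPKM. Ly6g (0, 4.34 and 0) and S100a9 (0.191, 0.851 and 0) were also highest in the intermediate library. Csf3r (3.5, 0.887 and 0.654), S100a8 (3.57, 3.03 and 0) and Camp (0.334, 0.165 and 0) were highest in the grape-like library. Cholangiocyte markers summed to 113, 636 and 807 FPKM and hepatocyte markers to 5763, 10230 and 1387. The part of these cells in the differences between shapes was not tested. The 4 members together took 1.09%, 4.15% and 3.04% of all fragments in these libraries, in the same order.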

How the data were processed

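Bulk libraries of organoids and of cells labelled primary hepatocytes were made from poly(A) RNA, and 3 Smart-Seq libraries from amplified full-length cDNA. The authors deposited FPKM values per gene in 3 tables, and the submitters' processing notes name featureCounts 2.0.3, edgeR 3.40.2 and mm10. The aligner is not given in the sources used here. The deposited FPKM of the hepatocyte table gave whole fragments for 100% of values with the listed lengths, within 0.01. For the other tables library sizes and the members' lengths were recovered from the same steps. FPKM divides by a gene length, which differed between tables, and a few abundant genes move all other values.

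The members and gene lists were chosen with earlier results of these data known. Genes of at least 1 FPKM in 3 libraries of a table were tested on log2(FPKM + 1) with limma 3.58.1 in R 4.3.3 (trended, two-sided, all groups of a table in the fit), with Benjamini-Hochberg adjustment and a threshold of 0.05. The members' changes against Pri-Hep are given without a test, since the members were chosen for their level in Pri-Hep. Over all genes, calls against Pri-Hep were counted with the same test. The genes named were the members, their neighbours in rank and the 5 highest genes in Pri-Hep, the 3 genes most like each member, up to 3 called genes of largest change and the most abundant gene of each list, and leading or undetected markers. Other marker genes were named after their values were seen. Some genes of the lists are shown in the plot of Lcn2 beyond this rule. The script was tested on simulated counts. Intervals cover counting error only, since there was 1 library per shape. The reads carry no molecular identifiers, so copies made by amplification could not be told apart and the intervals may be too narrow. Smart-Seq libraries were compared by fold alone.

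A figure legend assigns the replicate numbers to mice. The same-numbered libraries did not deviate together, with a median correlation of deviations from the group means of -0.0016 over 18 pairs in the hepatocyte table and -0.0063 over 9 pairs in the Cho-Orgs. Alternatives were another pseudocount (0.1), no filter, a mean of at least 5 FPKM, TPM, median-ratio size factors, no trend, only the groups compared, the replicate block and leaving out each replicate. Python 3.11.15 was used for the rest.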

Additional observations from a re-analysis of the deposited data

Results flagged for a closer look

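The difference of Spp1 between P5 and P10 had opposite signs in the 2 organoid types. Every Cho-Orgs library of P10 lay below every one of P5 (log2 -0.61), where groups did not overlap for 74.2% of genes, and every Hep-Orgs library of P10 lay above every one of P5 (log2 0.060), as for 8.52% of genes. The difference between the organoid types was not tested, since their tables were normalized separately, and the change in the Hep-Orgs did not pass the limma test (adjusted p = 0.275).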

How the results depend on the processing

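The members' log2 changes between Cho-Orgs passages kept their direction under all 144 alternatives run. The fall of Mmp7 from P5 to P10 lost its call without a filter on low values (-0.31), and Lcn2 gained one with only the 2 groups compared (-0.24). Leaving out replicates gave -0.34 to -0.28 for Mmp7 and -0.28 to -0.18 for Lcn2 from P5 to P10, and 0.068 to 0.22 for Clu from P0 to P10, which gained a call without replicate 2. It gave 4268 to 6528 called genes from P0 to P5. The replicate block changed no call of a member, and it took the 3 genes called in Hep-Orgs P10 against P5 to 0, as did no filter, no trend and only the 2 groups compared. The cause of these changes was not tested.

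In the Hep-Orgs, no filter and TPM each gave 1 call for P5 against P1, and leaving out replicates gave 0 to 3 there and 0 to 2 for P10 against P5. Limma-voom, added after seeing the data, called 28 genes for P10 against P5, with Mmp7 at -0.070, and 29 for P10 against P1, with Mmp7 at -0.079 and Spp1 at 0.055. For P5 against P1 Spp1 turned to 0.0075 with TPM and 0.0021 with limma-voom, and ranged from -0.012 to 0.014 without single replicates, with Mmp7 at -0.020 to 0.0042. Lcn2 ranged from -0.0067 to 0.0058 for P10 against P5, and Mmp7 from -0.018 to 0.042 for P10 against Pri-Hep.

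Scaling moved the Smart-Seq differences past counting error in 24 of 36 cases, with no change of direction. With TPM and with median-ratio size factors, respectively, grape-like against round-like gave -1.51 and -1.46 for Mmp7, -1.38 and -1.32 for Spp1, -1.74 and -1.68 for Clu and -0.58 and -0.52 for Lcn2. Intermediate against round-like gave 0.54 and 0.75 for Mmp7, 0.40 and 0.61 for Spp1, 0.16 and 0.37 for Clu and 1.1 and 1.31 for Lcn2. Grape-like against intermediate gave -2.06 and -2.21 for Mmp7, -1.78 and -1.93 for Spp1, -1.89 and -2.05 for Clu and -1.68 and -1.83 for Lcn2. Each member had at least 13093 fragments in a library. Genes near the filter of 1 FPKM rest on fewer fragments.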
